A study of Mus musculus with 4 samples.

Results

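Interleukin-4 (IL-4) acts on macrophages through its receptor and the transcription factor STAT6 and turns on the programme known as alternative activation, with genes such as arginase 1 and the chitinase-like lectin Chil3, and it makes peritoneal macrophages fuse. DAP12, encoded by Tyrobp, is a membrane adaptor whose ITAM motif passes signals from partner receptors to the kinase Syk and is known for its place in osteoclast and giant cell formation. The study asked how loss of DAP12 alters gene expression in resting macrophages and in their response to IL-4, and the account below is of the last of these, the difference between both IL-4 responses.

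For each gene the response to IL-4 on the arrays labelled Dap12-KO minus the response in wild type was taken, which is the same quantity as the genotype difference with IL-4 minus the genotype difference untreated. It is given for 12767 of 18193 genes, the ones kept by a filter that asked for at least 1 log2 value at or above a level floor of 6.39, the median of the whole table. Higher and lower are used of genes whose difference of responses was 2-fold or more, a log2 value of 1. The sign follows the labels: a positive value means that the IL-4 array stood further above the untreated array, or less far below it, on the arrays labelled Dap12-KO than in wild type.

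Macrophages were taken from the peritoneal cavity of mice given thioglycolate, which recruits inflammatory macrophages there, and were kept for 18 hours on permanox slides. Cells of wild type and of Dap12-KO mice were each cultured untreated or with IL-4, which makes 4 groups with 1 array each. All 4 shared the thioglycolate, the slides and 2 cycles of amplification, and the labels give neither the allele, the strain, the age nor the number of mice behind an array. With 1 array in each of 4 groups there are 0 residual degrees of freedom, so no value below has a test or an error, and the number of arrays limits the precision.

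All 10 fixed macrophage markers, among them Csf1r, Adgre1 and Cd68, were above the level floor on all 4 arrays. The targeted gene did not bear out its label: Tyrobp read 14.39 and 14.13 on the untreated and IL-4 wild type arrays and 14.03 and 13.27 on the arrays labelled Dap12-KO, with a difference of responses of −0.50 (−0.16 after cyclic loess). Where its probes lie relative to the altered part of the gene is not given in the sources used here, and every direction below rests on the labels alone. The arrays also differed in spread. The middle 50% of values spanned 3.19 to 3.25 log2 units on 3 of them but 2.54 on the array labelled Dap12-KO IL-4, where the hybridisation controls averaged 9.68 against 10.22 to 10.65. The 3′ minus 5′ difference of the Gapdh control probe sets ranged from 1.42 to 1.63 over the arrays, and that of the actin control from 0.39 to 0.63. Differences of responses are therefore given as deposited and, in parentheses, after cyclic loess, a scaling that fits the arrays to each other along the whole range of levels. Levels of single genes are as deposited.

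The largest difference of responses in either direction belonged to an oxysterol enzyme gene and to a gene of the neurexophilin family. Ch25h, which makes the signalling oxysterol 25-hydroxycholesterol, read 9.48 and 9.80 in wild type without and with IL-4, and 6.42 and 10.77 on the arrays labelled Dap12-KO. Its array labelled Dap12-KO untreated was the low one, close to the level floor, so the difference of responses was 4.02, or 16.2-fold (4.65 after cyclic loess). The genotype difference was −3.06 untreated and 0.96 with IL-4, and the latter passed 2-fold after cyclic loess at 1.69. Nxpe4 read 6.36 and 5.63 in wild type and 9.59 and 5.11 on the arrays labelled Dap12-KO. Here the same array was the only one above the level floor, and the difference of responses was −3.75 (−3.82 after cyclic loess).

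Over all genes the difference of responses was not centred on 0 as deposited. Its median was −0.36, with 1041 genes higher (8.15% of 12767) and 1893 lower (14.8%). After cyclic loess the median was 0.09, with 1136 higher (8.90%) and 713 lower (5.58%). Of the genes higher as deposited, 766 were also higher after cyclic loess, which is 73.6% of the first list and 67.4% of the second. Of those lower, 668 were shared, 35.3% of the deposited calls and 93.7% of the loess calls. Median centring gave 753 higher and 2612 lower, and quantile normalization 1454 and 1009, so the split between directions depended on the scaling. Most called genes had moved less than 2-fold with IL-4 in wild type, 1025 of the 1041 higher and 1813 of the 1893 lower. The median wild type response over all 12767 genes was −0.03. The share of all genes under 2-fold is not given here, so these counts do not set the called genes apart.

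A difference of responses can arise from the untreated pair of arrays, from the IL-4 pair or from both, and the called genes were classed by which genotype difference was 2-fold or more. As deposited, the untreated level alone differed in 22 genes that were higher and 220 that were lower. The IL-4 level alone differed in 900 higher and 1050 lower. Both differed in opposite directions in 1 and 23, both in the same direction by unequal amounts in 30 and 32, and neither reached 2-fold in 88 and 568. After cyclic loess the untreated class held 71 and 140 genes and the IL-4 class 909 and 297. Among these, 20 and 110 untreated-level genes and 644 and 272 IL-4-level genes kept class and sign in both scalings.

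**Figure D1:**
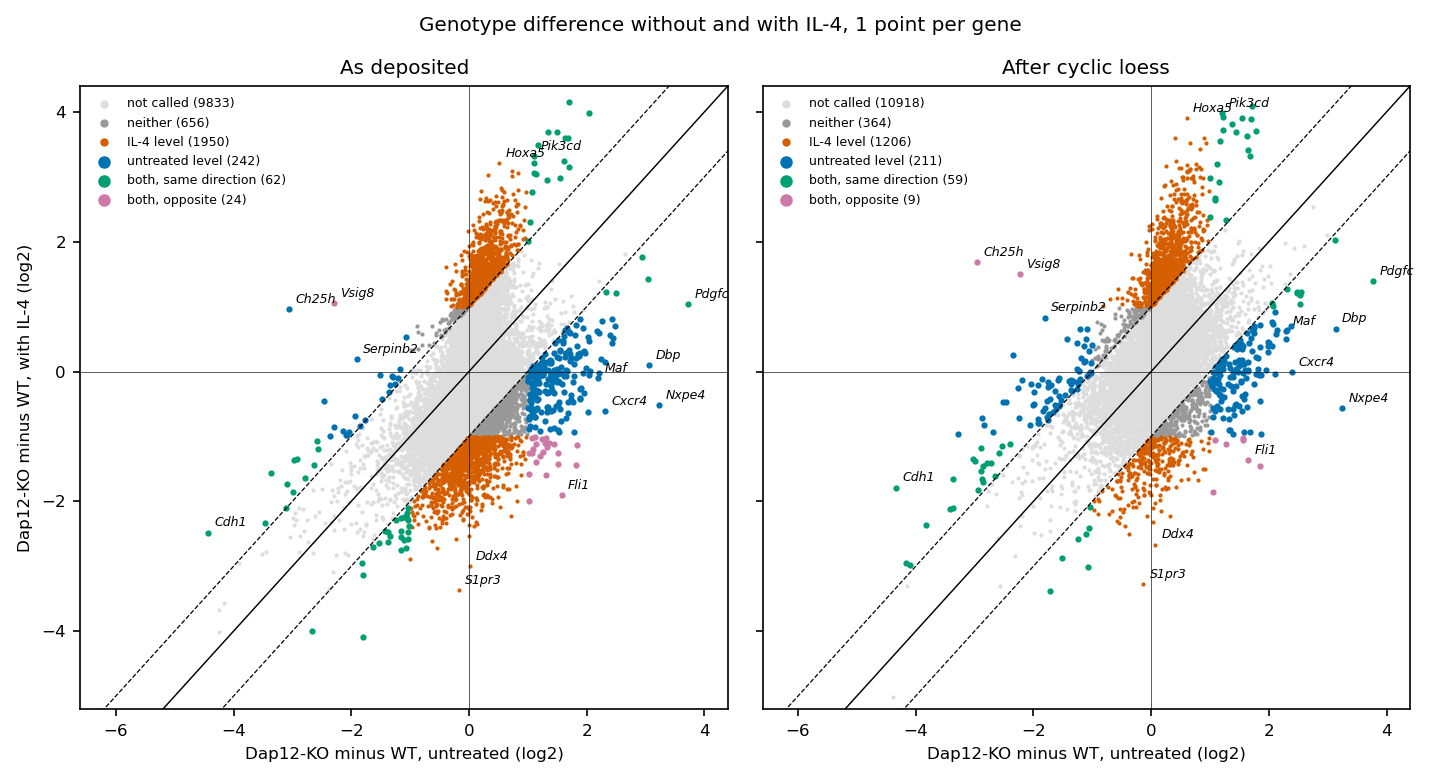
Genotype difference with IL-4 (vertical) against the genotype difference untreated (horizontal), both Dap12-KO minus WT in log2 units, 1 point per gene for 12767 genes, as deposited and after cyclic loess. The solid line marks equal differences, the dashed lines a difference of responses of 2-fold; genes of the untreated level class lie along the horizontal axis (242 as deposited, 211 after loess), and genes of the IL-4 level class along the vertical axis (1950 and 1206).

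Genes that started high on the array labelled Dap12-KO untreated and met the wild type level with IL-4 made up most of the untreated class. Dbp, a clock output transcription factor, read 7.49 and 7.01 in wild type and 10.54 and 7.10 on the arrays labelled Dap12-KO, a difference of responses of −2.97 (−2.47 after cyclic loess). Cxcr4, the receptor of the chemokine Cxcl12, read 8.04 and 7.45 against 10.35 and 6.84, a difference of −2.92 (−2.40). In both genes 1 array, the untreated one labelled Dap12-KO, stood 2-fold or more above each of the other 3. The second probe set of Dbp, which had no part in choosing it, gave −0.91 (−0.73) in the same direction and below the threshold.

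Further members of this kind had roles in immune regulation, chromosome structure and transcription. Havcr2, the inhibitory receptor TIM-3, read 7.66 and 7.41 in wild type and 9.44 and 6.49 on the arrays labelled Dap12-KO, a difference of −2.71 (−2.30). Ncapg2, a subunit of condensin II, read 8.15 and 7.32 against 10.18 and 6.70, a difference of −2.65 (−2.15). Pcmtd2 read 7.89 and 8.02 against 9.42 and 7.09, a difference of −2.46 (−1.95), and its second probe set gave −2.78 (−2.51). The transcription factor Maf, a regulator of mature macrophages, read 9.16 and 9.01 against 11.35 and 8.91, a difference of −2.30 (−1.67), and its second probe set gave −3.41 (−2.84). Among the 220 genes, 168 had the array labelled Dap12-KO untreated 2-fold or more above each of the other arrays, and 187 were above the level floor on all 4.

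The 22 genes of the opposite kind read 2-fold or more below wild type on the array labelled Dap12-KO untreated. That array stood 2-fold or more below each of the others in 6 of them. In 4 the wild type untreated array stood 2-fold or more above each of the others, among them Gpr84, Fpr2 and Hp. Serpinb2, the plasminogen activator inhibitor type 2, read 12.45 and 11.26 in wild type and 10.54 and 11.46 on the arrays labelled Dap12-KO, a difference of responses of 2.10 (2.64). With IL-4 it read lower in wild type but higher in cells labelled Dap12-KO. Gpr84, a receptor for medium-chain fatty acids, read 12.25 and 9.83 against 9.79 and 9.38, a difference of 2.01 (2.61). The wild type untreated array was the high one there, and the other 3 lay close together.

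For the formyl peptide receptor Fpr2, wild type read 10.26 and 6.47, and the arrays labelled Dap12-KO read 8.75 and 6.42, a difference of 1.46 (1.94). Haptoglobin (Hp), a haemoglobin-binding acute phase protein, read 12.11 and 9.43 against 9.81 and 8.58, a difference of 1.45 (2.06). Both were lower with IL-4 in each genotype, and the smaller step on the arrays labelled Dap12-KO began from a lower untreated value. Itgax, the CD11c integrin chain, read 13.01 and 13.02 against 11.08 and 12.34, a difference of 1.25 (1.73), with the wild type arrays alike in both treatments. Olfm1 and Serinc2, which with the 4 before Itgax are the 6 leading genes, had differences of 1.37 and 1.60 (2 and 1.37), and 2 of the 4 values of Serinc2 lay below the level floor.

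The second brightest probe set of a gene had no part in choosing it and gives a further reading of the same 4 arrays. Of 106 genes of the untreated class that were lower and had such a probe set above the floor, 87 (82.1%) gave the same sign and 58 (54.7%) also reached 2-fold. Over all 5603 genes with a second probe set, 70.2% were negative and 19.2% reached 2-fold in that direction. In the IL-4 class, 486 of 607 lower genes gave the same sign (80.1%) and 211 reached 2-fold (34.8%). For the higher genes of the IL-4 class these were 135 of 179 (75.4%) and 49 (27.4%), beside 29.7% and 6.18% over all genes. A second probe set entered only if it reached the floor on at least 1 array. Those below it on all 4 were left out, not counted as disagreeing. For higher genes near the floor on the other arrays this filter itself favours the same sign, so their shares are no check of the calls.

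**Figure D2:**
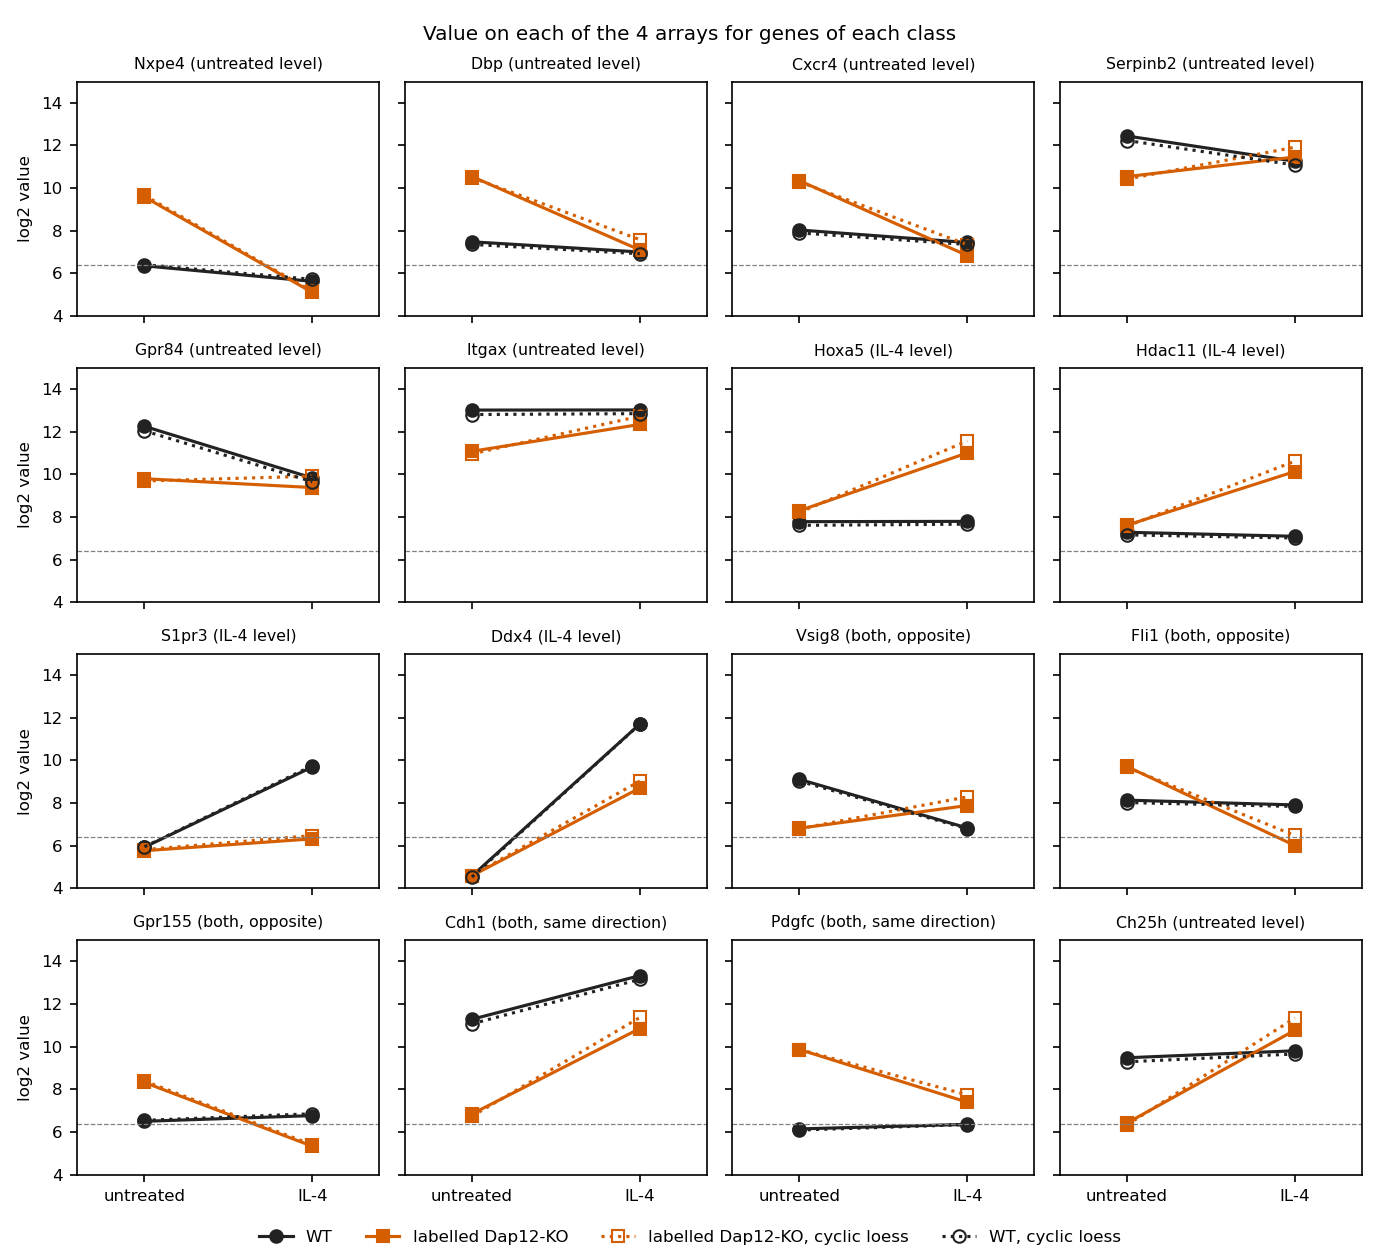
Log2 value (vertical) without and with IL-4 (horizontal) for 16 genes on each of the 4 arrays, WT in black and the arrays labelled Dap12-KO in orange, filled symbols as deposited and open symbols after cyclic loess, with the level floor of 6.39 as a dashed line. In Nxpe4, Dbp and Cxcr4 the lines part at the untreated end; in Hoxa5, Hdac11, S1pr3 and Ddx4 they part at the IL-4 end; in Vsig8, Fli1 and Gpr155 they cross.

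RefSeq promoters (build GRCm38.p6) from 250 bases before to 50 after the start were matched by symbol for 64 of the 91 named genes, and both strands were searched for TGANTCA, the core bound by AP-1 (Fos and Jun dimers), for CACGTG, the E-box of clock factors, and for TTC and GAA set 4 bases apart or 3 apart (TTCNNNGAA), the forms bound by STAT6 and other STAT factors. The FOXO form TGTTTAC and the D-box TTANGTAA were searched too. Of the 64 genes 21 held a match to any of these forms, and Gpr84, Serinc2, Olfm1 and Cxcr4 held none. The 4 windows printed were picked after the search because they hold matches, to show what a match looks like, and so they say nothing of how common matches are. The 250 bases before the start are given for 2 genes that started low on the array labelled Dap12-KO untreated, Serpinb2 (chr1:107511173-107511422, plus strand, the first of its 2 starts) and Itgax (chr7:128129300-128129549, plus strand), and for 2 that started high there, Nxpe4 (chr9:48361791-48362040, plus strand) and Havcr2 (chr11:46454681-46454930, plus strand). Capitals mark every match. Each sequence runs 5′ to 3′ towards the gene:
Serpinb2: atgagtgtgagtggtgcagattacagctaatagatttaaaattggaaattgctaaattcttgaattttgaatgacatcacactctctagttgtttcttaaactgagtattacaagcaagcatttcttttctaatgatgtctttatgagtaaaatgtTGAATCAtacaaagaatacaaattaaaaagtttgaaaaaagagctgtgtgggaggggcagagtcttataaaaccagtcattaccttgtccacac
Itgax: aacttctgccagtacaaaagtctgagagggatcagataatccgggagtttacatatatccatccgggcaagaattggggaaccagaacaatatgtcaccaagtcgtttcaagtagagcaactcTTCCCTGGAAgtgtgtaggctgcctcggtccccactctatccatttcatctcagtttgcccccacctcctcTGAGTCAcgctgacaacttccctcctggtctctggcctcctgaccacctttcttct
Nxpe4: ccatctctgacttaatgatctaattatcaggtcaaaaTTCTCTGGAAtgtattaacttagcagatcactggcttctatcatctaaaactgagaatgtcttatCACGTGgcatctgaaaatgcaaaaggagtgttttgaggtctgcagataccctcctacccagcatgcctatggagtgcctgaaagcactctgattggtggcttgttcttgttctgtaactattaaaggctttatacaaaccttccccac
Havcr2: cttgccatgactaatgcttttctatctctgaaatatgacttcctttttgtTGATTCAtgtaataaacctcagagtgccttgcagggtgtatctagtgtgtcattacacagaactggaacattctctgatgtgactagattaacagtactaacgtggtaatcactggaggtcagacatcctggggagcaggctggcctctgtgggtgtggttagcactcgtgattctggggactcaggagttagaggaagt
Counted from the start, the AP-1 form began at −94 in Serpinb2, −56 in Itgax and −200 in Havcr2. Itgax and Nxpe4 held the TTC and GAA form with a gap of 4, beginning at −127 and −213, and Nxpe4 an E-box at −148. Serpinb2 held TTCNNNGAA after the printed stretch, beginning 11 bases after the start. No matches overlapped in these 4 windows, and none was of the FOXO form or the D-box.

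Among genes that kept their class in both scalings, the AP-1 form stood in the promoters of 3 of 16 untreated-level genes that were higher (18.8%), the third being Cgref1, and of 12 of 89 that were lower (13.5%). It stood in 34 of 478 higher genes of the IL-4 class (7.11%) and 12 of 222 lower (5.41%). The share over the 10316 measured genes with a promoter was 6.60%, and that over all 27025 genes with a listed promoter was 8.97%. TTCNNNGAA was in 3 of the 16, 12 of the 89, 34 of the 478 and 25 of the 222, beside 8.18% of measured genes. The E-box was in 2 of the 16 and 12 of the 89, beside 11.4% of measured genes, and the TTC and GAA form with a gap of 4 in 1 and 7, beside 6.48%. The FOXO form was in 0 of the 16 and 3 of the 89, beside 3.23% of measured genes. These are counts of letters in a window, not of bound sites, and no test was made.

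The IL-4 class was the larger and leaned on a single array. Of its 1950 genes, 709 had the array labelled Dap12-KO IL-4 2-fold or more above each of the other arrays and 805 had it 2-fold or more below each of them. The wild type IL-4 array stood apart in this way in 20. After cyclic loess the array labelled Dap12-KO IL-4 stood apart in 924 of 1206. Among the 900 higher genes, 440 (48.9%) had all other 3 values below the level floor and so passed the filter only through the array where they were high, whereas 852 of the 1050 lower genes were above it on all 4 arrays.

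Of the 6 leading higher genes of this class, Hoxa5, Hdac11 and Baat had all 4 values above the floor. Each of these genes has 2 probe sets, and its other probe set was below the floor on all 4 arrays, so it did not repeat the reading. Hoxa5, a homeobox transcription factor, read 7.78 and 7.79 in wild type and 8.30 and 11 on the arrays labelled Dap12-KO, a difference of 2.69 (3.30 after cyclic loess). Hdac11, a histone deacetylase, read 7.28 and 7.09 against 7.62 and 10.13, a difference of 2.70 (3.19). In both, the array labelled Dap12-KO IL-4 stood 2-fold or more above each of the other 3. The liver enzyme gene Baat, which joins bile acids to amino acids, differed by 2.58 (2.91), and the antitrypsin gene Serpina1b, also known from liver, by 2.47 (2.27), with 3 of its 4 values below the floor.

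In the other direction, S1pr3 and Ddx4 were the 2 of the 6 leading genes with a large response in wild type. S1pr3, a receptor for sphingosine 1-phosphate, read 5.94 and 9.70 in wild type and 5.77 and 6.33 on the arrays labelled Dap12-KO, a difference of −3.20 (−3.14), and only the wild type IL-4 array was above the floor. Its second probe set gave −0.73 (−1.02). Ddx4, the germ cell RNA helicase Vasa, read 4.58 and 11.71 in wild type and 4.60 and 8.71 on the arrays labelled Dap12-KO, a difference of −3.02 (−2.73). Both untreated values of Ddx4 lay below the floor, and it was well above it with IL-4 in both genotypes.

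The other 4 leading genes of that group were low on the array labelled Dap12-KO IL-4 alone. Lysmd3 read 8.52 and 8.30 in wild type and 9.24 and 6.07 on the arrays labelled Dap12-KO, a difference of −2.95 (−2.46), and its second probe set gave −2.87 (−2.49). Smarca2, the BRM ATPase of SWI/SNF chromatin remodelling complexes, differed by −2.81 (−2.39), but its second probe set gave 1.25 (1.34), the opposite direction. Arid4a and Sbk1 differed by −2.62 and −2.57 (−2.05 and −2.07), with second probe sets at −0.70 and −0.14 (−0.23 and 0.09).

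The difference of responses also moved with level. As deposited, its median was 0.74 in the lowest decile of genes by mean level, −0.20 in the fourth decile and −0.69 in the sixth, and it was −0.42 in the highest decile. After cyclic loess the same deciles had medians of 0.46, 0.15, −0.08 and 0.02. In the lowest decile 29.1% of genes were higher and 3.37% lower as deposited, and 12.2% and 5.40% after cyclic loess. Genes of that decile had mean levels of 5.27 to 6.31, below the level floor, so each passed the filter only through its higher values. Where the array labelled Dap12-KO IL-4 was the one that reached the floor, the filter itself favours a positive difference. The values of the lowest decile are therefore no measure of a dependence on level. What part the filter and the narrower array have in the medians by decile was not tested.

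**Figure D3:**
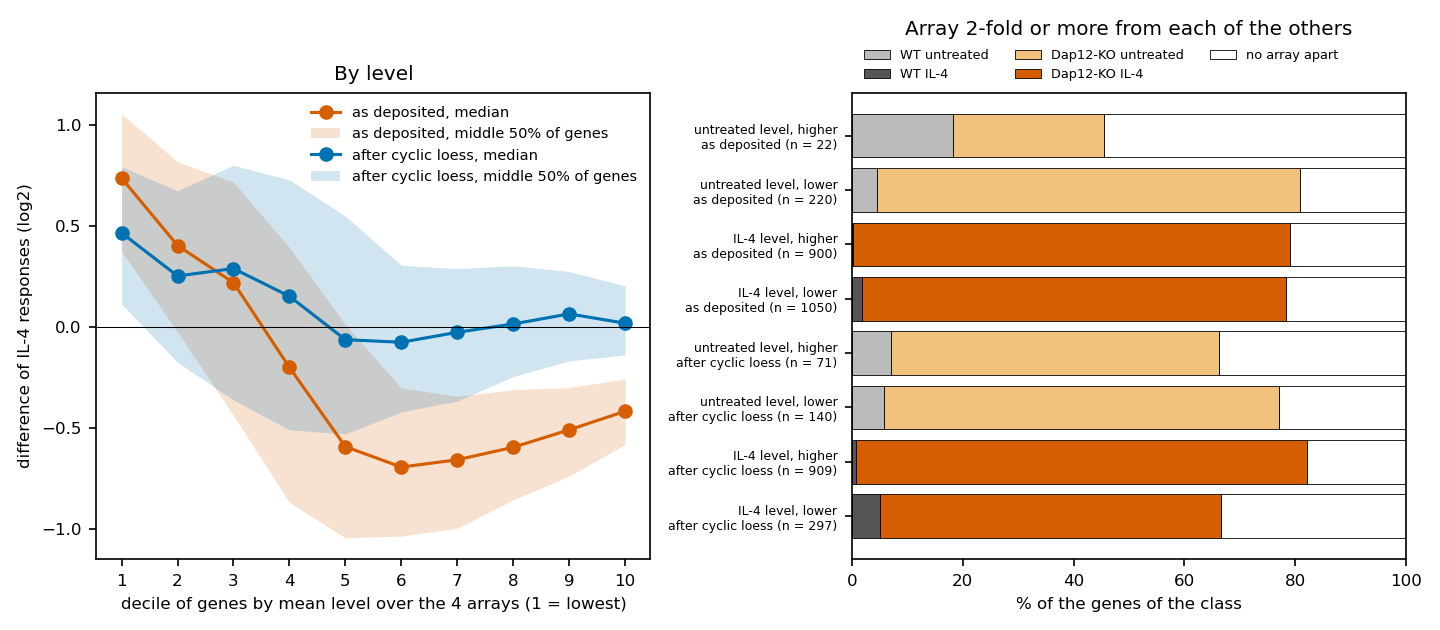
Left, median difference of responses (log2, points) and middle 50% of genes (shading) by decile of mean level, as deposited and after cyclic loess; the deposited median falls from 0.74 in the lowest decile to −0.69 in the sixth. Genes of the lowest decile have a mean below the level floor and passed the filter only through their higher values, which can itself favour a positive difference. Right, percent of the genes of a class for which 1 named array lay 2-fold or more from each of the others; the array labelled Dap12-KO IL-4 takes most of the IL-4 level class and the untreated one most of the untreated level class that was lower.

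Genes 2-fold or more apart in both pairs of arrays, in opposite directions, were few, 1 higher and 23 lower as deposited. Vsig8, a member of the immunoglobulin superfamily, read 9.11 and 6.84 in wild type and 6.82 and 7.89 on the arrays labelled Dap12-KO, a difference of 3.34 (3.73). Fli1, an ETS transcription factor of blood and endothelial cells, read 8.14 and 7.92 against 9.72 and 6.01, a difference of −3.48 (−3.01), and its second probe set gave −1.24 (−0.93). Gpr155 (−3.26, −3.30 after cyclic loess), the zinc finger gene Zfp467 (−3.01, −2.92), the Wnt receptor ubiquitin ligase gene Znrf3 (−2.76, −2.58), the translation inhibitor gene Pdcd4 (−2.59, −2.14) and Ttc30b (−2.28, −2.38), known from transport in cilia, had the shape of Fli1. Each of these 5 was higher untreated and lower with IL-4 on the arrays labelled Dap12-KO than in wild type. For Fli1 and all of the 5 but Pdcd4, the value on the array labelled Dap12-KO IL-4 lay below the level floor. The second probe set of Zfp467 gave −0.39 (−0.41), and the other probe set of Znrf3 was below the floor on every array.

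A gene can also differ between genotypes in both treatments, by unequal amounts. Cdh1, E-cadherin, which IL-4 is known to induce before fusion, read 11.28 and 13.33 in wild type and 6.85 and 10.85 on the arrays labelled Dap12-KO. The genotype difference was −4.44 untreated and −2.48 with IL-4, so the difference of responses was 1.96 (2.55). Ocstamp, which is needed for osteoclast fusion, read 11.45 and 13.21 against 7.98 and 10.88, a difference of 1.13 (1.70). For both, IL-4 went with a larger step on the arrays labelled Dap12-KO, from a lower start to a lower end.

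Timp1, an inhibitor of matrix metalloproteinases, read 13.28 and 13.02 in wild type and 9.91 and 11.46 on the arrays labelled Dap12-KO, a difference of 1.81 (2.32). Fosl1, the AP-1 subunit Fra-1, read 9.55 and 8.61 against 6.96 and 7.55, a difference of 1.52 (2.05), with 0.54 (0.27) in its second probe set. After cyclic loess the genotype differences of Timp1 and Fosl1 with IL-4 were −0.96 and −0.47, under 2-fold, which put both in the untreated class. As deposited, these 2 and Cdh1 and Ocstamp belong to 12 of the 30 higher genes differing in both treatments that read lower on the arrays labelled Dap12-KO in both. The other 18 read higher in both. Pik3cd, the leukocyte PI3-kinase catalytic subunit p110 delta, was among the 18 at 9.58 and 10.10 against 10.69 and 13.42, a difference of 2.21 (2.78), but its second probe set gave 0.07 (0.70). Cavin2, a caveola protein, and the kallikrein Klk1b5 differed by 2.35 and 2.46 (2.44 and 2.37), and in both the wild type values lay below the floor.

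Pdgfc, a platelet-derived growth factor, read 6.14 and 6.36 in wild type and 9.86 and 7.39 on the arrays labelled Dap12-KO, a difference of −2.68 (−2.38), with −1.59 (−1.65) in its second probe set. It stayed above wild type in both treatments, and so did Arhgap19, at −1.62 (−1.08). Jag1, a Notch ligand, read 10.74 and 9.85 against 8.94 and 5.76, a difference of −2.28 (−1.67), and its second probe set gave 0.64 (0.51). Jag1 is one of 27 genes of the 32 lower in this class that read below wild type in both treatments.

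Gene lists were read by counts and medians beside the same values over all genes. In the list of alternative activation genes 4 of 31 members were higher and 2 lower as deposited, beside 8.15% and 14.8% of all genes. After cyclic loess 11 were higher and 1 lower, beside 8.90% and 5.58%. The list median was 0.34 (0.81 after cyclic loess) against −0.36 (0.09) over all genes. Of the 31 members 19 were positive (24 after cyclic loess), beside 4339 (7200) of all 12767 genes. The median genotype difference over members, taken separately for each treatment, was −0.52 untreated and −0.24 with IL-4 as deposited. After cyclic loess these medians were −0.44 and 0.19. Over all genes they were 0.03 and −0.39 as deposited, and 0.09 and 0.13 after cyclic loess.

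The members differed in which pair of arrays stood apart. Slc7a2, which carries arginine into the cell, read 11.38 and 13.04 in wild type and 10.18 and 12.94 on the arrays labelled Dap12-KO, a difference of 1.09 (1.60). It started lower on the arrays labelled Dap12-KO and met wild type with IL-4. Arg1, which splits arginine, went the other way at 11.31 and 14.66 against 12.45 and 14.37, a difference of −1.42 (−1.01). The transcription factor Klf4 read 10.39 and 10.91 against 10.31 and 11.84, a difference just past the threshold (1.58 after cyclic loess). Irf4 (0.92, 1.5 after cyclic loess), Batf3 (0.88, 1.51 after cyclic loess), Chil3 (0.70, 1.15), Egr2 (0.64, 1.03), Retnla (0.63, 1.13) and Ccl22 (0.55, 1.12) passed 2-fold only after cyclic loess. The growth factor receptor Flt1 at −1.15 (−0.57) and the amino acid oxidase Il4i1 at 1.24 (0.99) passed it only as deposited. For IL-4 receptor signalling genes 0 of 19 were higher and 1 lower as deposited (0% and 5.26%, beside 8.15% and 14.8% of all genes). After cyclic loess 1 was higher and 0 lower (5.26% and 0%, beside 8.90% and 5.58%). The higher one was the STAT-induced inhibitor Cish at 1.29 (0.66 as deposited).

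Of 26 DAP12 partner receptors and ITAM signalling genes, 0 were higher and 1 lower as deposited (3.85%), beside 8.15% and 14.8% of all genes. After cyclic loess 2 were higher and 1 lower (7.69% and 3.85%, beside 8.90% and 5.58%), and the list's median was −0.24 (0.27). Sirpb1a, a DAP12-coupled receptor, read 9.32 and 8.09 in wild type and 10.40 and 7.41 on the arrays labelled Dap12-KO, a difference of −1.75 (−1.14). The Src family kinase Fgr at 0.88 (1.45) and the receptor Trem1 at 0.97 (1.14) passed 2-fold after cyclic loess. Sirpb1a started above wild type, and Fgr and Trem1 started below it.

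Of 13 matrix proteases and inhibitors 10 read below wild type on the arrays labelled Dap12-KO in both treatments, in either scaling. Serpinb2 was among the exceptions, below wild type untreated and above it with IL-4. In the difference of responses 2 of the 13 were higher, Serpinb2 and Timp1, and 0 lower (15.4% and 0%, beside 8.15% and 14.8% of all genes), and the collagenase Mmp13 joined them after cyclic loess at 1.23 (0.80 as deposited). The median genotype difference of this list was −1.32 untreated and −1.08 with IL-4 (−1.24 and −0.49 after cyclic loess). Over all genes it was 0.03 and −0.39 (0.09 and 0.13). The share of all genes below wild type in both treatments is not given here. Of 22 fusion and osteoclast genes 2 were higher, Cdh1 and Ocstamp, and 2 lower (9.09% each), and after cyclic loess 5 were higher and 0 lower (22.7% and 0%, beside 8.90% and 5.58% of all genes). The 3 added were Dcstamp at 1.05, the integrin chain Itgb3 at 1.22 and the chemokine Ccl2 at 1.27 (0.47, 0.60 and 0.68 as deposited). The median of the fusion list, −0.36 (0.09), was that of all genes.

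**Figure D4:**
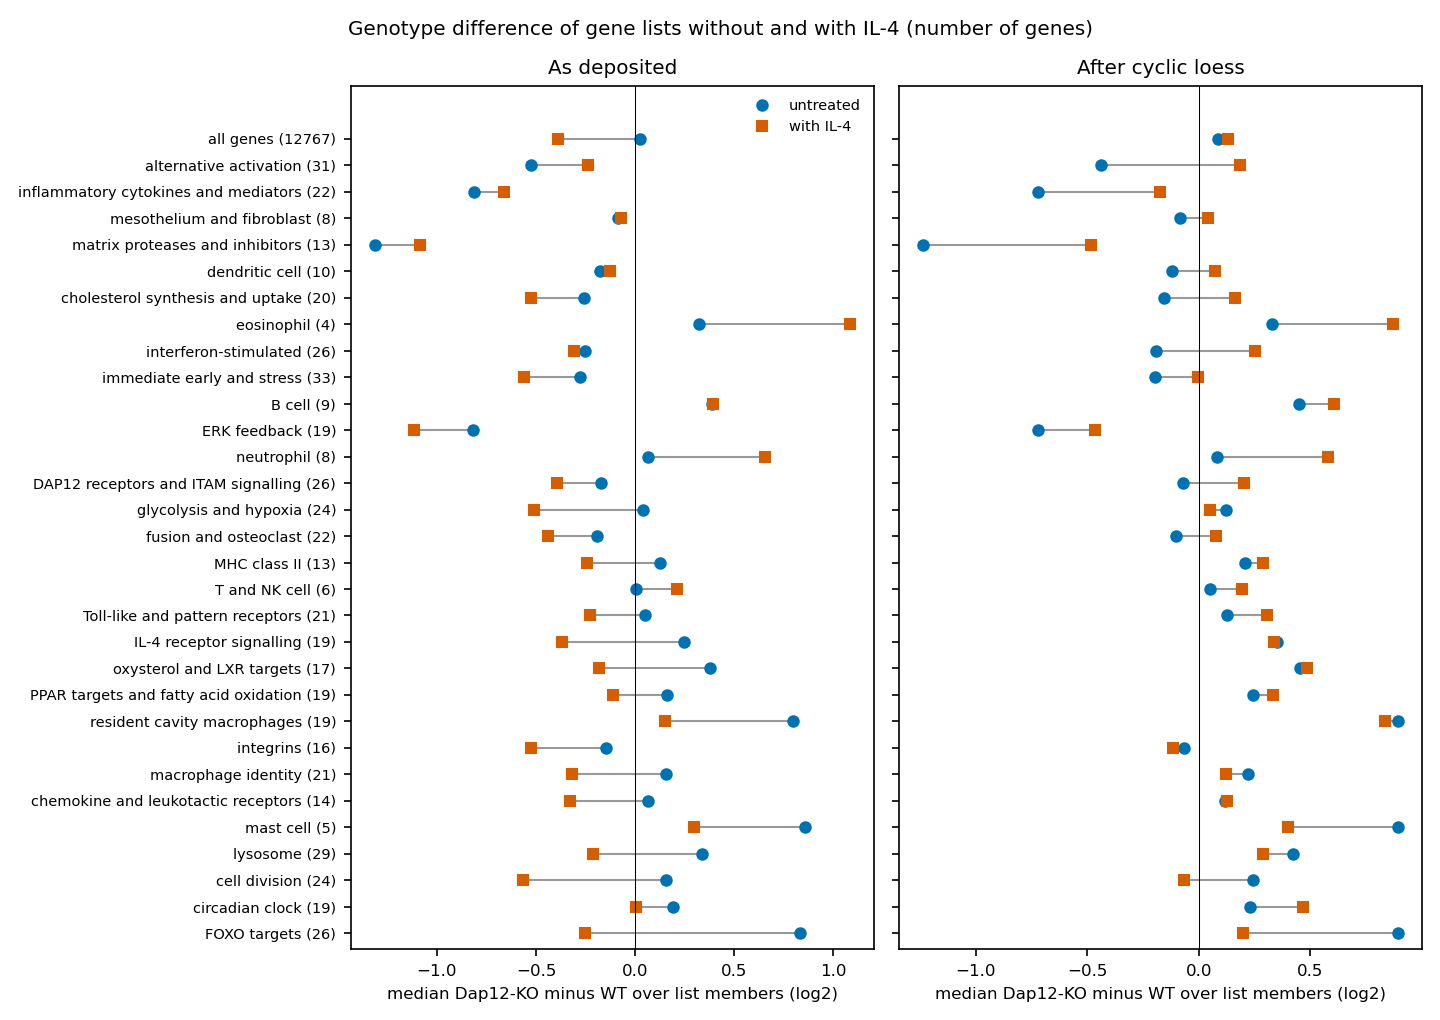
Median genotype difference (log2, Dap12-KO minus WT) untreated (circles) and with IL-4 (squares) for all genes and each gene list, with the number of genes above the floor, as deposited and after cyclic loess. The FOXO target medians are 0.83 untreated and −0.25 with IL-4 as deposited, and those of alternative activation −0.52 and −0.24.

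Targets of FOXO factors, which halt growth and promote catabolism when PI3-kinase and AKT signalling is low, held the highest share of lower genes as deposited among the lists drawn. Of 26 members 13 were lower and 0 higher, beside 14.8% and 8.15% of all genes, and after cyclic loess 6 and 0, beside 5.58% and 8.90%. The list median was −0.93 (−0.56). This list was drawn up in earlier work after values of these arrays had been seen, so its count is a description of these arrays only.

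Of the 13, the untreated level differed in 6. The cyclin gene Ccng2 read 8.85 and 8.48 in wild type and 10.74 and 8.06 on the arrays labelled Dap12-KO, a difference of −2.31 (−1.69). The muscle ubiquitin ligase gene Fbxo32 (atrogin-1) read 7.36 and 6.94 against 9.81 and 7.46, a difference of −1.94 (−1.48), with −2.21 (−2.05) in its second probe set. Tsc22d3, the glucocorticoid-induced leucine zipper, Foxo3 itself, Sesn1 and Pink1 differed by −1.71, −1.63, −1.28 and −1.23 (−1.08, −1.07, −0.71 and −0.61). All 6 were 2-fold or more above wild type untreated and within 2-fold of it with IL-4 as deposited. Cdkn1b, the cell cycle inhibitor p27, was instead low on the array labelled Dap12-KO IL-4, with a genotype difference of 0.94 untreated and −1.35 with IL-4 and a difference of responses of −2.29 (−2.20), and its second probe set gave 0.81 (0.53).

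**Figure D5:**
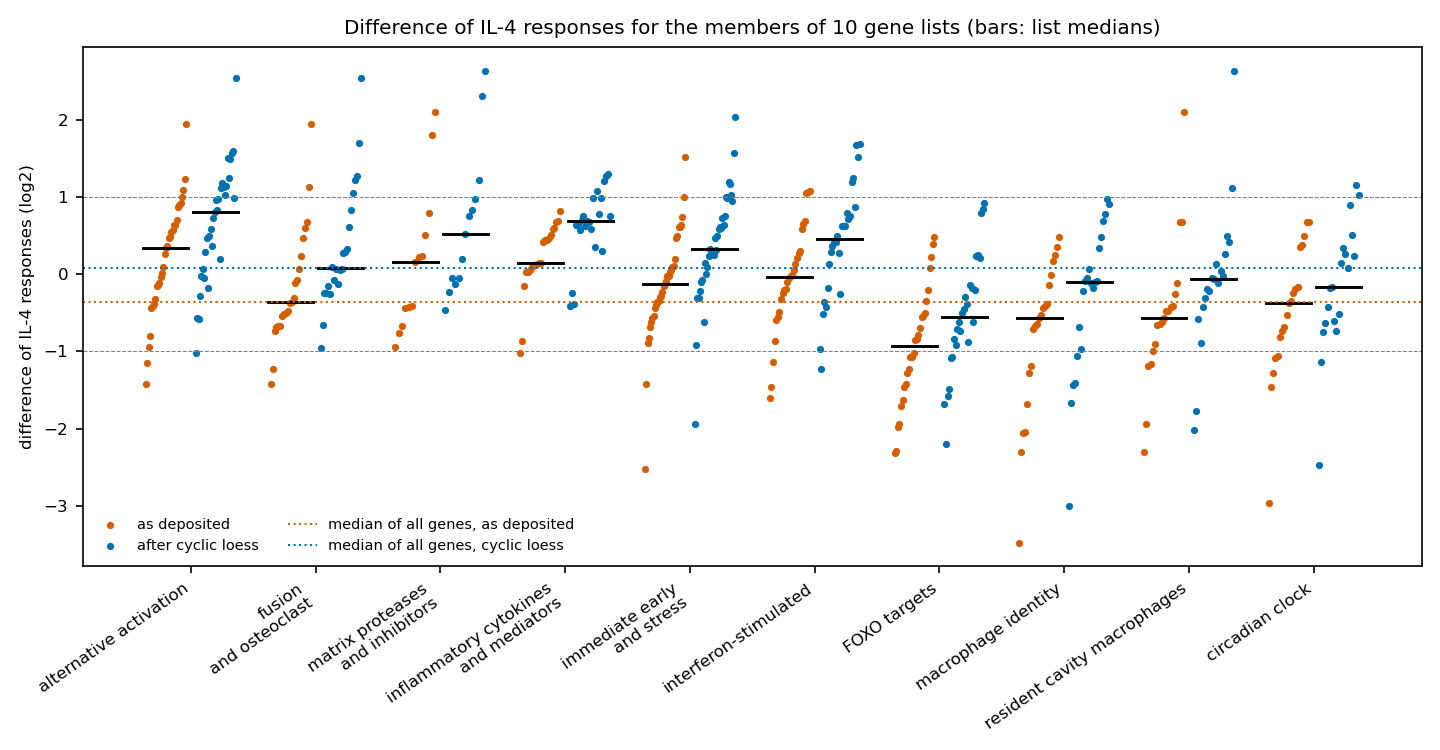
Difference of responses (log2) of each member above the floor in 10 gene lists, as deposited (orange) and after cyclic loess (blue), with the list medians as black bars, the medians of all genes (−0.36 and 0.09) as dotted lines and 2-fold as dashed lines. Members of the alternative activation list lie mostly above the median of all genes, with a list median of 0.34 (0.81 after cyclic loess), and FOXO targets mostly below it, with −0.93 (−0.56).

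Genes of macrophage identity had 0 of 21 members higher and 7 lower as deposited (33.3%), beside 8.15% and 14.8% of all genes. After cyclic loess 0 were higher and 5 lower (23.8%), beside 8.90% and 5.58%, with a median of −0.56 (−0.10). The efferocytosis receptor Mertk read 9.32 and 9.61 in wild type and 11.29 and 9.89 on the arrays labelled Dap12-KO, a difference of −1.68 (−1.06). The transcription factor Mef2c read 9.92 and 10.64 against 9.89 and 8.54, a difference of −2.06 (−1.43), with −1.08 (−0.51) in its second probe set. As deposited, Mertk and Maf differed in the untreated pair and Mef2c in the IL-4 pair. The Fc receptor gene Fcgr1 differed by −2.04 (−1.41), with −1.52 (−0.91) in its second probe set. In bulk RNA, fewer cells of a type and less of a transcript per cell cannot be told apart.

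Of 19 genes known from resident cavity macrophages, 16 read above wild type on the array labelled Dap12-KO untreated in either scaling; Serpinb2, F10 and Cav1 read below. With IL-4, 11 were above wild type as deposited and 17 after cyclic loess. The median genotype difference was 0.80 untreated and 0.15 with IL-4 (0.89 and 0.83 after cyclic loess). Over all genes it was 0.03 and −0.39 (0.09 and 0.13), so all genes also shifted between scalings with IL-4. The share of all genes above wild type is not given here. In the difference of responses 1 member was higher, Serpinb2, and 4 were lower as deposited (5.26% and 21.1%, beside 8.15% and 14.8% of all genes), and 2 and 2 after cyclic loess (10.5% each, beside 8.90% and 5.58%). Thbd, thrombomodulin, read 7.80 and 6.71 in wild type and 9.24 and 5.85 on the arrays labelled Dap12-KO, a difference of −2.30 (−2.02). Ltbp1, which binds latent TGF-beta, differed by −1.94 (−1.77).

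Inflammatory cytokines had 0 of 22 members higher and 1 lower as deposited (0% and 4.55%, beside 8.15% and 14.8% of all genes). After cyclic loess 4 were higher (18.2%) and 0 lower, beside 8.90% and 5.58% of all genes. The list median was 0.15 (0.69). The neutrophil chemokine Cxcl3 read 11.04 and 9.51 in wild type and 7.53 and 6.69 on the arrays labelled Dap12-KO, a difference of 0.69 (1.30). Of 33 immediate early and stress genes 2 were higher, Fosl1 and Klf4, and 2 lower, Egr3 and Gadd45a (6.06% each, beside 8.15% and 14.8% of all genes). After cyclic loess 6 were higher (18.2%) and 1 lower (3.03%), beside 8.90% and 5.58%. Egr3, at −2.52 (−1.94), had a second probe set at 1.37 (1.64). Of 19 genes of ERK feedback 1 was higher, Fosl1, and 1 lower, Dusp6 (5.26% each, beside 8.15% and 14.8% of all genes). After cyclic loess 4 were higher (21.1%) and 0 lower, beside 8.90% and 5.58%. The phosphatases Dusp4 at 0.91 (1.52) and Dusp6 at −1.33 (−0.74) lay on opposite sides, both below wild type on the arrays labelled Dap12-KO in each treatment.

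Interferon-stimulated genes had 3 of 26 higher and 3 lower as deposited (11.5% each), near the 8.15% and 14.8% of all genes, and 5 and 1 after cyclic loess (19.2% and 3.85%, beside 8.90% and 5.58%). Oas2, which senses double-stranded RNA, read 9.24 and 7.50 in wild type and 9.49 and 8.83 on the arrays labelled Dap12-KO, a difference of 1.08 (1.69). Mx1, an antiviral GTPase, read 7.54 and 8.17 against 7.11 and 6.28, a difference of −1.46 (−1.23). Of 14 receptors for chemokines and other attractants 2 were higher (14.3%), Gpr84 and Fpr2, and 5 lower (35.7%), led by Cxcr4 and Ccr2. After cyclic loess 3 were higher (21.4%) and 2 lower (14.3%). The shares over all genes were 8.15% and 14.8% as deposited, and 8.90% and 5.58% after cyclic loess. Ccr2, the monocyte receptor for Ccl2, read 8.18 and 8.98 against 8.65 and 7.36, a difference of −2.09 (−1.54), with 0.18 (0.70) in its second probe set.

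Of 21 Toll-like and other pattern receptors 2 were higher and 2 lower (9.52% each), near the 8.15% and 14.8% of all genes, and 3 and 0 after cyclic loess (14.3% and 0%, beside 8.90% and 5.58%). Tlr9, which senses DNA, read 7.59 and 7.55 in wild type and 7.67 and 9.23 on the arrays labelled Dap12-KO, a difference of 1.60 (2.09), and the inflammasome gene Nlrp3 differed by 1.19 (1.81). Of 16 integrin chains 2 were higher and 5 lower (31.2%), and 3 and 1 after cyclic loess (18.8% and 6.25%). Of 13 MHC class II genes 0 were higher and 1 lower (7.69%) in either scaling. That 1 was H2-Ob, a chain of the peptide exchange inhibitor H2-O, at 8.62 and 8.46 in wild type and 9.29 and 6.90 on the arrays labelled Dap12-KO, a difference of −2.23 (−1.68).

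The share of lower genes as deposited, 14.8% over all genes, was 26.3% in the clock list and 33.3% in the cell division list, and 16.7% for glycolysis and hypoxia, 10.5% for PPAR, 10.3% for lysosome and 10% for cholesterol genes, which lay near or below that of all genes. After cyclic loess it was 5.58% over all genes and 10.5%, 12.5%, 12.5%, 0%, 3.45% and 0% in the same order of lists. Of 19 clock genes 0 were higher and 5 lower (2 and 2 after cyclic loess), of 24 cell division genes 3 and 8 (2 and 3), of 24 glycolysis and hypoxia genes 1 and 4 (1 and 3), of 20 cholesterol genes 1 and 2 (2 and 0), of 19 PPAR and fatty acid oxidation genes 0 and 2 (0 and 0), and of 29 lysosome genes 0 and 3 (0 and 1). Mcm4, a subunit of the replicative helicase, read 9.15 and 9.55 in wild type and 9.65 and 7.61 on the arrays labelled Dap12-KO, a difference of −2.44 (−1.81), with −1.49 (−0.89) in its second probe set. Ndrg1, a hypoxia-induced gene, read 8.48 and 9.90 against 9.93 and 8.79, a difference of −2.56 (−1.93), with −3.05 (−2.43) in its second probe set. As deposited its wild type value was 2-fold or more higher with IL-4 and its value on the arrays labelled Dap12-KO 2-fold or more lower. Of 17 oxysterol genes 2 were higher, Ch25h and Apoc1, and 4 lower (11.8% and 23.5%, beside 8.15% and 14.8% of all genes). After cyclic loess 1 was higher and 2 lower (5.88% and 11.8%, beside 8.90% and 5.58%). The sterol hydroxylase Cyp27a1 differed by −2.08 (−1.54) and Mylip, which degrades the LDL receptor, by −2.26 (−1.63).

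Markers of other cell types were read over all members above the floor. Neutrophil markers had 8 of 12 above it, with S100a9, Ltf and Lcn2 below, and averaged 7.39 and 7.34 in wild type and 7.47 and 7.77 on the arrays labelled Dap12-KO. For eosinophils 4 of 7 averaged 6.50, 6.89, 6.91 and 7.45 in the same order, and for B cells 9 of 10 averaged 7.32, 7.37, 7.81 and 7.72. Markers entered these averages only if at least 1 array reached the floor. Near the floor this filter favours the array where a marker is high, so a higher average there is no measure of such cells. For T and NK cells 6 of 13 were above the floor, for mast cells 5 of 10, for dendritic cells 10 of 13, and for mesothelium and fibroblasts 8 of 15. As deposited 3 of the 8 neutrophil markers were higher and 1 lower (1 and 0 after cyclic loess), 1 and 1 of the T and NK cell markers (1 and 2), 1 and 1 of the mast cell markers (1 and 1), 0 and 2 of the B cell markers (0 and 0), 1 and 0 of the dendritic cell markers (3 and 0), 2 and 0 of those of mesothelium and fibroblasts (2 and 0), and 0 and 0 for eosinophils (0 and 0). Over all genes 8.15% were higher and 14.8% lower as deposited, and 8.90% and 5.58% after cyclic loess. In the 4 lowest deciles by mean level 29.1%, 16.2%, 15.3% and 10.3% of genes were higher as deposited. In the same deciles 3.37%, 5.25%, 12.2% and 20.4% were lower. Members of 1 cell type went both ways. The T cell gene Cd28 differed by −2.34 (−2.62), with only 1 of its values above the floor, and Cd8a by 1.46 (1.58). The mast cell genes Hdc and Cpa3 differed by 1.5 and −1.33 (1.75 and −1.17), and the neutrophil granule gene Camp by 2.14 (2.15). The part of such cells in the differences was not tested.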

How the data were processed

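The authors deposited 1 table of log2 values for 45101 probe sets on 4 1-colour Affymetrix arrays, for which the submitters' processing notes name RMA without a version. Per the labels' protocols, RNA was amplified in 2 cycles and labelled with biotin. Values come without detection calls or depth, since probe-level files were not analysed here. Probe sets were named from GEO's platform annotation and updated through Entrez identifiers for 34741 probe sets: 34945 named 1 gene, 932 several, 9160 none and 64 were controls. Each of 18193 genes was read from its brightest probe set by mean over the 4 arrays, and 12767 reached the median of all values, 6.39, on at least 1 array.

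Samples were grouped by title. The difference of responses was called at 2-fold and classed by the genotype differences. Nothing was tested, for lack of replicates. Cyclic loess (3 iterations) and quantile normalization used limma 3.58.1 in R 4.3.3, and the rest Python 3.11.15 with numpy 2.4.6 and pandas 2.3.3. The classing was tested on simulated data. Named genes were Tyrobp, up to 6 genes of each class and sign with the largest difference among those in the same class and sign in both scalings, and up to 4 members of each list called in the same direction in both. The other list members, Rnf180 and the symbol families were named after their values were seen. The groups, lists and classes were chosen with earlier results of these data known. Alternatives were other scalings, level floors, thresholds, margins and uses of several probe sets.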

Additional observations from a re-analysis of the deposited data

Results flagged for a closer look

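In 2 genes IL-4 went with a 2-fold or larger change in opposite directions in the 2 genotypes, both as deposited and after cyclic loess, and with 1 array per group the difference was not tested. Vsig8 was lower with IL-4 in wild type by a log2 difference of −2.28 and higher by 1.07 on the arrays labelled Dap12-KO, a difference of responses of 3.34 (3.73 after cyclic loess). Rnf180, a ubiquitin ligase gene, read 7.84 and 8.88 in wild type and 9.15 and 7.28 on the arrays labelled Dap12-KO, a difference of −2.90 (−2.36 after cyclic loess). Ndrg1 met the same description only as deposited and Serpinb2 only after cyclic loess.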

How the results depend on the processing

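No paired analysis was possible because each group is 1 array without a replicate number, and no array can be left out, since the difference needs all 4. Cyclic loess gave 713 lower genes in place of 1893, and 71 higher and 140 lower genes of the untreated class in place of 22 and 220, and 297 lower genes of the IL-4 class in place of 1050. Quantile normalization gave 1009, 55, 143 and 550 for the same 4 counts. Median centring gave 12 higher untreated-level genes. With a floor at the 75th percentile there were 275 higher genes and 212 of the IL-4 class in place of 1041 and 900, and with a floor on the mean 635 and 527. At 3-fold, 213 genes were higher and 449 lower, with 6 and 47 in the untreated class and 191 and 165 in the IL-4 class. A 1.5-fold margin left 12 higher untreated-level genes. Counting every probe set gave 2057 higher and 4533 lower. With the median over probe sets, Pik3cd (−0.57), Jag1 (0.79), Cep68 (0.47) and Rora (0.13) changed sign; there 22 of 87 named genes fell below 2-fold and 58 moved by less than 1.5-fold. Median centring took 7 of 91 below 2-fold, and under cyclic loess 70 of 91 moved by less than 1.5-fold. The cause of these shifts was not tested. Signal near background limits the 440 higher IL-4-level genes with 3 values below the floor.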

Other observations

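Gene families were also read by symbol prefix, a grouping chosen after values had been seen. Of 262 zinc finger genes (Zfp) above the level floor, 88 were lower (33.6%) and 12 higher (4.58%) as deposited, beside 14.8% and 8.15% of all genes. After cyclic loess 49 were lower (18.7%) and 15 higher (5.73%), beside 5.58% and 8.90%. Their median difference of responses was −0.74 (−0.30), and their median genotype difference was −0.02 untreated and −0.72 with IL-4. Of the 88, 75 were in the IL-4 class. The mean level of the 262 was 7.97 and 8.01 in wild type and 7.98 and 7.39 on the arrays labelled Dap12-KO, and in deciles 4 and 5 of genes by mean level 20.4% and 27.6% were lower as deposited and 11.4% and 9.01% after cyclic loess. Cytosolic ribosomal protein genes had 1 of 45 higher and 1 lower, with a median of −0.34 (0.04), close to that of all genes. The prefixes Fgf, Col and Krt went the other way, with 6 of 10, 6 of 24 and 7 of 24 genes higher as deposited (60%, 25% and 29.2%). After cyclic loess 40%, 29.2% and 25% were higher. Lower genes were 0, 0 and 1 in either scaling. Their mean levels on the wild type untreated array, 5.97, 6.72 and 6.52, lay near the floor, where the filter itself can favour higher genes.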
